A study of Mus musculus with 88 samples.

Results

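Mouse embryonic stem cells (mESCs) that carried a plasmid for Crxos were compared here with mESCs that carried an empty plasmid. The members were the 3 mESC libraries labelled Crxos1, Crxos2 and Crxos3, chosen by their labels alone, out of 88 samples in the series. There was 1 library for each label, and the labels do not say how the 3 constructs differ. The reference was ES_Empty, with 2 libraries. For a second pair of comparisons the same 3 Crxos libraries were set against 2 ES_Obox3 libraries and against 2 ES_Dux libraries. These 2 contrasts share the Crxos libraries.

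The series asked how the embryonic genome is switched on and what Obox3 does in that step. Its mESC table holds 19 libraries, each from cells given a plasmid for 1 homeobox gene or an empty one. All cells were wild-type male mESCs of a C57BL/6 and 129 hybrid, kept in serum medium with LIF, the MEK inhibitor PD0325901 and the GSK3 inhibitor CHIR99021, and all were transfected with a Lipofectamine reagent. Total RNA was made into libraries with a stranded SMART-seq kit from Takara. The time between transfection and RNA collection, the promoter of the Crxos plasmids and the share of cells that took them up are not stated in the labels, and bulk RNA does not tell a change in few cells from a smaller change in all of them.

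Crxos, also called Egam1, encodes a homeodomain protein and lies beside Crx, the homeobox gene that drives photoreceptor genes in the retina, on the opposite strand. Both belong to the paired-like homeobox genes, as do the Obox genes of oocytes and early embryos and Dux, which switches on genes of the 2-cell embryo when it is expressed in mESCs. CRX and its relatives bind DNA through a short TAATCC core. In the 2-cell embryo the genes switched on with the genome include Zscan4, Tcstv, Usp17l and Trim43 family members, and mESCs keep nearly all of them silent.

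In the RefSeq annotation of GRCm38.p6, Crxos spans chr7:15882617-15904030 and Crx spans chr7:15865947-15879955, with 2661 bases between them. RefSeq lists 3 coding transcripts and 1 noncoding transcript of Crxos, with 3 start windows. The 250 bases upstream of the Crx start and of the Guca1a start are shown as examples of windows that hold this core. Both genes were lower in the Crxos libraries than in ES_Obox3, as described further on, though Crx reached only 2.22 and 2.15 deposited TPM there. The windows of Trim43a and Klf17, also lower in the Crxos libraries, held 0 matches and are not shown. Guca1a encodes a calcium-binding activator of photoreceptor guanylate cyclase. Both sequences are from RefSeq on GRCm38.p6, 5′ to 3′ on the strand of the gene, and capitals mark GGATTA, the reverse complement of TAATCC. The first lies at chr7:15879956-15880205 on the minus strand and holds 2 such matches, and the second at chr17:47400607-47400856 on the minus strand holds 1.
Crx: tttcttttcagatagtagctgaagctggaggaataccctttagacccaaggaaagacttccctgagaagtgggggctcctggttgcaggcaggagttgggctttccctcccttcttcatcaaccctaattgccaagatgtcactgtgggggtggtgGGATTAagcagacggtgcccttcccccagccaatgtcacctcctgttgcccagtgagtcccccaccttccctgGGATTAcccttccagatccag
Guca1a: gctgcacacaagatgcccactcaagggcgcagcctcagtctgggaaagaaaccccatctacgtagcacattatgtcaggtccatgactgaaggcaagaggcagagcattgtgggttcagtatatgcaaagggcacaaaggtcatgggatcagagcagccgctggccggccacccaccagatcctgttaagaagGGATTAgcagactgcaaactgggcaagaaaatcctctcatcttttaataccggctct
The 3 start windows of Crxos held 0 matches to TAATCC on either strand. A match is a description of these letters only.

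Values are TPM as deposited divided by a factor for each library, called scaled TPM in what follows. The factors of the 5 libraries were close to each other, from 0.947 to 1.06. The libraries had between 15855 and 17580 genes at 1 TPM or more, and their 10 most abundant genes took 48.9 to 58.8% of the TPM. At 1 TPM a gene of 1 kb rested on only 3.47 to 4.88 reads. Across 17653 genes the 2 ES_Empty libraries had a correlation of 0.946 in log2(scaled TPM + 1), the Crxos libraries had 0.936 to 0.947 with one another, and each Crxos library had 0.927 to 0.947 with each ES_Empty library. By this measure a Crxos library stood about as close to ES_Empty as the ES_Empty libraries stood to each other.

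The expressed gene checked the labels. Crxos reached 2684 scaled TPM in the library labelled Crxos1, 1270 in Crxos2 and 1396 in Crxos3, and 0.344 and 1.01 in the ES_Empty libraries. It ranked 25th, 57th and 53rd among all genes of the 3 libraries. All 3 values lay far above both control values, and the level in Crxos1 was the highest. The fitted log2 fold change was 10.00 (SE 0.384, 95% interval 9.02 to 10.98, adjusted p = 0.0218, limma with Benjamini-Hochberg adjustment, 3 libraries against 2). The error here is the spread between 3 constructs with 1 library each, and nothing in the labels ties libraries to separate cultures, so the p-values speak only to differences among these libraries, and their spread may be technical. Crx itself stayed at 0.132, 0.0931 and 0 scaled TPM in Crxos1 to Crxos3 and was listed at 0 in both ES_Empty libraries.

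**Figure D1:**
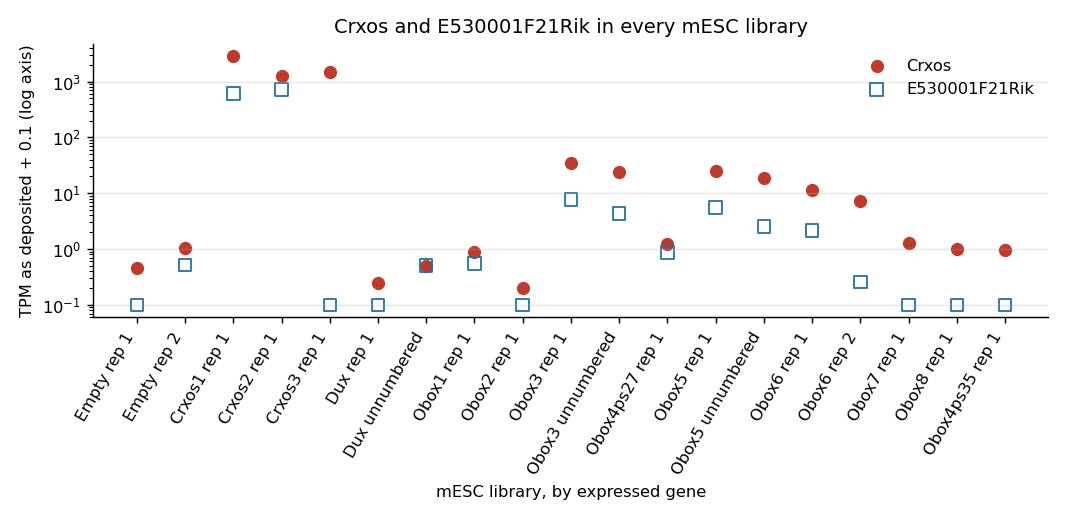
Crxos (filled circles) and the pseudogene E530001F21Rik (open squares) in all 19 mESC libraries, 1 point a library, as deposited TPM + 0.1 on a log axis. Crxos stands above 1000 TPM in the 3 Crxos libraries and at 34.1 and 24.1 in ES_Obox3, while E530001F21Rik is high in Crxos1 and Crxos2 and listed at 0 in Crxos3.

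Besides Crxos no gene passed the test against ES_Empty. Of 17653 genes tested, 1 was called (0.00566%), and that gene was Crxos. A call needed an adjusted p under 0.05 together with a log2 fold change of 1 or more in size. The number called lower was 0. Without adjustment 1134 genes (6.42%) had p under 0.05 in limma, 652 of them higher and 482 lower in the Crxos libraries. The lowest adjusted p of any other gene was 0.0938, for the microRNA gene Mir98, which was listed at 5.78, 5.45 and 7.21 scaled TPM in the Crxos libraries and at 0 in both ES_Empty libraries. Mir98 spans only chrX:151913214-151913321, and a gene so short rests on few reads at these levels.

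The intervals say how large a change in log2(scaled TPM + 1) could have gone uncalled. For low genes that scale understates the fold change, so a narrow interval there does not bound it. For 12732 genes (72.1%) the whole 95% interval lay within 1 log2 unit of no change. That share was 56.7% among 8797 genes with a mean under 5 scaled TPM, 88.0% among 5636 genes from 5 to 20, 89.8% among 2524 genes from 20 to 100 and 74.9% among 696 genes at 100 or more. The median log2 fold change of all genes was -0.01. The call for Crxos itself was lost, with the log2 fold change still between 9.71 and 10.29, when Crxos2 (adjusted p = 0.192), Crxos3 (0.125), the first ES_Empty library (0.253) or the second (0.146) was left out of the limma fit. With a pseudocount of 0.1 its log2 fold change was 11.22 and its adjusted p 0.0606.

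**Figure D2:**
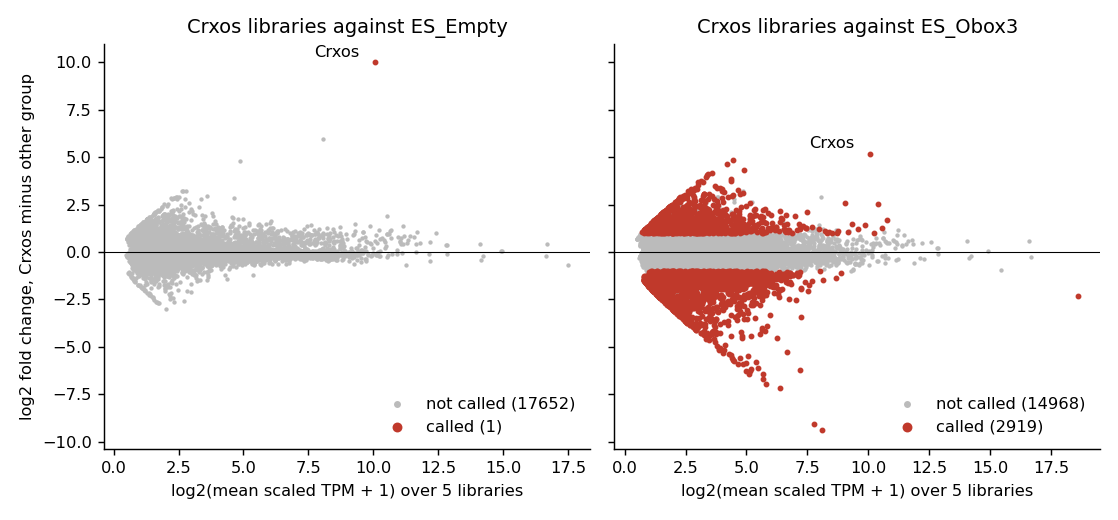
Log2 fold change (vertical axis, Crxos libraries minus the other group) against the mean level of each gene over the 5 libraries fitted, as log2(mean scaled TPM + 1), for ES_Empty on the left and ES_Obox3 on the right. Red points passed the test. On the left 1 gene of 17653 is red, Crxos, and on the right 2919 of 17887 are.

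No gene of the pluripotency network was called. None of the 32 core and naive pluripotency genes was called by limma, 0 had an unadjusted p under 0.05, and for 31 of them the 95% interval lay within 1 log2 unit, with a median log2 fold change of -0.06 against -0.01 for all genes and a range of -0.26 to 0.44. Pou5f1, which encodes the core factor OCT4, stood at 370, 382 and 307 scaled TPM in Crxos1 to Crxos3 and at 363 and 351 in ES_Empty. Its log2 fold change was -0.02 (95% interval -0.38 to 0.33). Sox2, its partner, stood at 67.8, 66.4 and 78.1 against 74.4 and 70.0. The groups overlapped in both genes. Nanog (log2 fold change -0.01, interval -0.31 to 0.30), Klf4 (-0.05, -0.33 to 0.24), Zfp42 (-0.14, -0.43 to 0.15) and Esrrb (0.06, -0.20 to 0.32) gave similar values. The member whose interval was wider was Dppa3, a maternal factor that protects DNA methylation in the zygote, at 5.60, 3.96 and 2.62 scaled TPM against 3.14 and 2.18 (log2 fold change 0.44, interval -0.30 to 1.17).

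Genes of the 2-cell embryo were low in both groups. Only 8 of 44 passed the filter on low values (1 TPM in at least 2 of the 5 libraries), and 0 of these were called by limma or had an unadjusted p under 0.05. The other 36 stayed at or under 3.43 scaled TPM in the Crxos libraries and at or under 1.51 in ES_Empty. The value of 3.43 was that of Zscan4d, a marker of the rare 2-cell-like cells in mESC cultures, in Crxos2, where Crxos1 and Crxos3 were listed at 0 and ES_Empty at 0.0560 and 0.0476. Zscan4c was 1.55 in Crxos2 but also 1.51 in the first ES_Empty library. Duxf3, the mouse Dux gene, was at 0.116, 0.218 and 0.240 against 0 and 0.361, and Zfp352 was listed at 0 in all 3 Crxos libraries. Dppa2 (log2 fold change -0.00, interval -0.35 to 0.35) and Dppa4 (-0.11, -0.34 to 0.12), which act upstream of Dux and are expressed in all mESCs, were measured at 32.9 to 42.6 scaled TPM in the Crxos libraries.

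Photoreceptor genes, the known targets of the neighbour Crx, were likewise near the floor. Of 36 only 3 passed the filter, Rom1, Cnga3 and Mef2d, with log2 fold changes of -0.03, 0.38 and -0.07. None was called in limma and 0 had an unadjusted p under 0.05. The other 33 did not exceed 0.957 scaled TPM in a Crxos library or 0.893 in an ES_Empty library, and at that level a gene rests on a few reads. Among 15 neural and eye-field genes 6 were tested and the intervals of all 6 lay within 1 log2 unit. They include Nkx6-2, a homeobox gene of the neural tube, at 22.8, 25.0 and 23.3 against 22.6 and 26.6.

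Lineage and signalling genes gave the same count. In limma 0 of 11 formative and primed genes, 0 of 6 primitive endoderm genes, 0 of 13 trophoblast genes, 0 of 6 gastrulation genes, 0 of 14 FGF signalling genes and 0 of 8 Wnt target genes were called. At an unadjusted p under 0.05 stood Zic2 among formative genes, Rhox6 among trophoblast genes and Lefty2 among gastrulation genes, and 0 genes of the other 3 lists. Rhox6, a homeobox gene of the placenta and germ line on chromosome X, was at 3.50, 2.91 and 1.80 scaled TPM in the Crxos libraries and 1.01 and 0.429 in ES_Empty. The groups did not overlap, as in 3858 (21.9%) of all genes tested, and its log2 fold change of 1.11 (interval 0.38 to 1.85) had an adjusted p of 0.651. Lefty2, an inhibitor of Nodal signalling, stood at 23.1, 24.9 and 24.1 against 20.5 and 20.3, with a log2 fold change of 0.23 (interval 0.03 to 0.43, adjusted p = 0.762). Spry4, which FGF signalling induces and which feeds back on it, stood at 14.5, 17.9 and 12.98 against 18.4 and 17.5, with an interval of -0.61 to 0.12.

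Genes that report on cell stress or on other cell types were not called either. Of 19 p53 target genes, 16 stress and immediate early genes and 4 interferon response genes tested, 0 were called by limma, with 1, 1 and 0 at an unadjusted p under 0.05. The former were Bbc3 at 11.8, 10.4 and 8.31 against 5.75 and 7.64, and Hspa1b at 5.51, 3.18 and 3.79 against 2.75 and 1.67. In neither gene did the groups overlap, which held for 21.9% of all genes tested, and the adjusted p were 0.762 and 0.776. All 38 cytosolic ribosomal protein genes had intervals within 1 log2 unit, and 4 had an unadjusted p under 0.05, Rpl10a, Rpl18, Rpl27 and Rps16, with log2 fold changes of -0.27, -0.31, -0.29 and -0.29. Of oocyte genes 0 of 5 tested, of germ cell genes 0 of 13 and of DNA methylation genes 0 of 14 were called, with Zp3 of the egg coat (log2 fold change -0.61, interval -1.16 to -0.05) the member of these 3 lists at an unadjusted p under 0.05. Of 12 fibroblast genes 2 were tested and 0 called, and Col1a1 was at or under 0.264 scaled TPM in all 5 libraries.

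**Figure D3:**
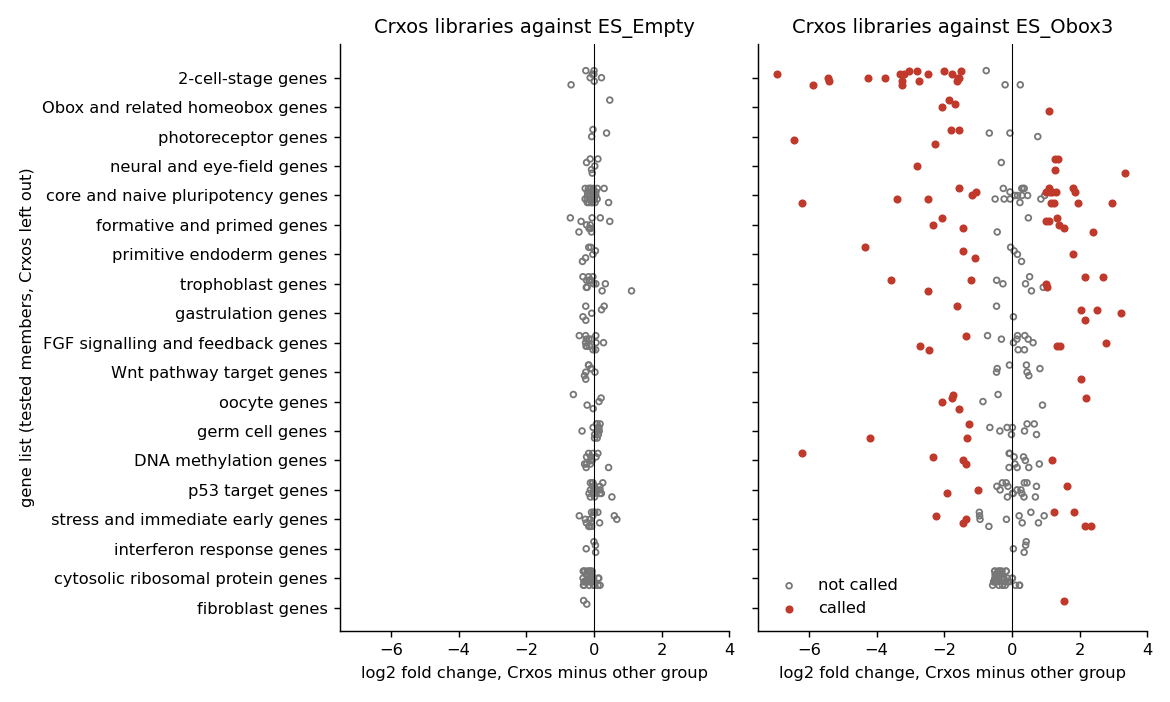
Log2 fold change (horizontal axis) of every tested member of the 19 gene lists, with Crxos left out, for the Crxos libraries against ES_Empty on the left and ES_Obox3 on the right. Filled red points passed the test. On the left 0 points are red, and on the right 20 of 23 tested genes of the 2-cell embryo are red and lower. Of these 23, 16 passed the filter without 1 TPM in any Crxos library. Over all genes tested against ES_Obox3 9.75% were lower.

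Each construct was then compared singly, with no replicate and so no test. A gene was counted when its log2(scaled TPM + 1) lay at least 2 above the higher ES_Empty library or at least 2 below the lower one. Crxos1 had 80 genes above (0.453%) and 38 below (0.215%), Crxos2 had 74 (0.419%) and 55 (0.312%), and Crxos3 had 120 (0.68%) and 27 (0.153%). The 2 ES_Empty libraries differed from each other by at least 2 in 373 genes. Crxos1 differed from Crxos2 in 333 genes (1.89%), Crxos1 from Crxos3 in 328 (1.86%) and Crxos2 from Crxos3 in 436 (2.47%). By this count 2 of the 3 pairs of constructs differed in fewer genes than the pair of empty plasmid libraries. Among 3220 genes with a mean of at least 20 scaled TPM, 3, 3 and 6 lay above in Crxos1, Crxos2 and Crxos3 and 0 lay below. The ES_Empty pair differed in 7 of these genes, by a looser rule, since a construct had to lie beyond both ES_Empty libraries.

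**Figure D4:**
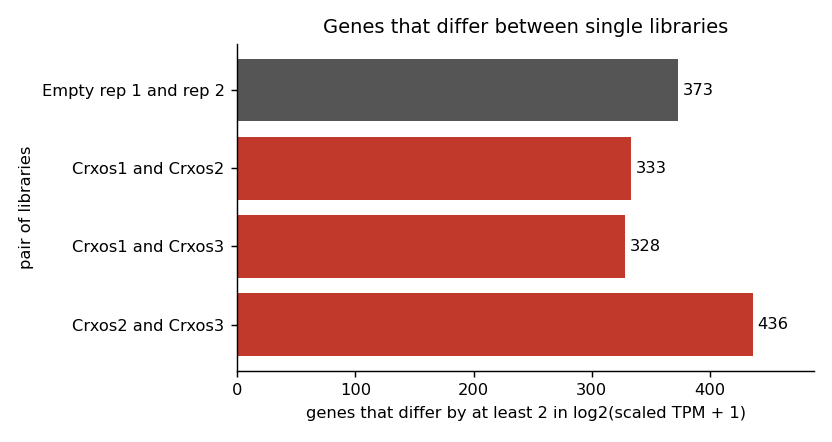
Number of genes that differ by at least 2 in log2(scaled TPM + 1) between single libraries, of 17653. The ES_Empty pair differs in 373 genes, and the pairs of Crxos constructs in 328 to 436.

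A large difference between constructs was seen in E530001F21Rik, a transcribed pseudogene at chrX:105164378-105165505, singled out after its values were seen. It stood at 582 scaled TPM in Crxos1 and 743 in Crxos2, was listed at 0 in Crxos3, and was listed at 0 and 0.445 in ES_Empty. The libraries of Crxos1 and Crxos2 were thus both high and that of Crxos3 was not. Over all 3 constructs its log2 fold change of 5.98 (SE 3.09) had an adjusted p of 0.814, and without Crxos3 it was 9.10 with an adjusted p of 0.0221 (limma), the only call of that fit. Its deposited TPM were 7.70 and 4.27 in ES_Obox3, 5.44 and 2.43 in ES_Obox5, 2.03 and 0.160 in ES_Obox6 and at most 0.764 in the other libraries without a Crxos plasmid. Whether its sequence shares reads with Crxos was not tested, and how the authors counted reads with several positions is not stated, so its level is uncertain.

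Trim12a, of the TRIM family of ubiquitin ligases that act in innate immunity, had the largest range over the constructs by the rule for named genes. It was at 45.2 scaled TPM in Crxos3, against 0.504 in Crxos1, 0.611 in Crxos2 and 0.352 and 1.37 in ES_Empty. As deposited it was 47.1 TPM in Crxos3 and also 40.9 TPM in 1 of the 2 ES_Dux libraries, with 1.04 in the other. Ddit3, a transcription factor of the unfolded protein response, was 16.9, 4.20 and 13.2 in Crxos1 to Crxos3, but the ES_Empty libraries themselves were at 3.64 and 19.2. The others named by the same rule were short noncoding genes, Rnu2-10, Rnu3b1, Rnu3b3, DQ267100 and n-TStga1. AF357428, a short noncoding gene named for its gain in Crxos1, was 18.1, 12.8 and 11.3 against 3.69 and 0. Rnu2-10, a copy of the U2 spliceosomal RNA, was 52.1, 889 and 59.3 against 59.7 and 285 in ES_Empty, so the controls also differed widely from each other. Such copies cannot be told apart from near-identical ones by the deposited values.

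The Crxos libraries were next set directly against the 2 ES_Obox3 libraries, which came from cells given another paired-like homeobox gene by the same method. Here the table separated widely. Of 17887 genes tested, 1175 (6.57%) were higher and 1744 (9.75%) lower in the Crxos libraries, so 40.3% of the calls were higher. With TPM as deposited the split was 3232 higher and 855 lower, 79.1% higher, and the median of all genes moved from 0.01 to 0.55. The factors of the ES_Obox3 libraries were 0.775 and 0.516, and their 10 most abundant genes took 64.3 and 73.8% of the TPM. The second ES_Obox3 library and the second ES_Dux library match their group by name but no numbered replicate in the labels. Leaving out either ES_Obox3 library lowered the count of lower genes to 1057 (without the first) or 964 (without the second).

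Genes of the early embryo were among those far lower in the Crxos libraries than in ES_Obox3. Trim43a, a 2-cell gene at chr9:88580891-88588824, was at 0.0525, 0.148 and 0.131 scaled TPM in Crxos1 to Crxos3, 0.128 and 0 in ES_Empty, and 134 and 136 in ES_Obox3 (log2 fold change against ES_Obox3 -6.94, 95% interval -7.19 to -6.68, adjusted p = 3.97e-05). Dppa3 was at 336 and 386 in ES_Obox3 against 2.62 to 5.60 in the Crxos libraries (-6.20, adjusted p = 0.000345). Klf17, a zinc finger gene of the oocyte and early embryo, was at 74.4 and 76.3 against 0.108 to 0.490 (-5.87). In all 3 genes the Crxos and ES_Empty values overlapped and both ES_Obox3 values lay far above them. Of 44 genes of the 2-cell embryo 23 passed the filter, with a median of -2.82 (0.01 for all genes). Of the 23, 20 were lower and 0 higher, against 9.75% and 6.57% of all genes tested. Since 16 of the 23 passed without a value of 1 TPM in any Crxos library, that count describes the filter as well as the difference. With TPM as deposited 17 were lower and 0 higher.

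Crx and 4 of the 7 photoreceptor genes tested, of 36 in the list, were also lower in the Crxos libraries than in ES_Obox3. Over all genes tested 9.75% were lower. Crx stood at 2.87 and 4.16 scaled TPM in ES_Obox3, against 0 to 0.132 in the Crxos libraries (log2 fold change -2.06, interval -2.71 to -1.41, adjusted p = 0.00406). Guca1a was at 0.596, 0 and 0.892 in the Crxos libraries, 0.292 and 0.124 in ES_Empty, and 117 and 131 in ES_Obox3 (-6.43, adjusted p = 0.000381). Guca1b, its neighbour, had -2.29, Gucy2e, the cyclase they act on, -1.81, and Gnat1, the rod transducin subunit, -1.56, from levels of 2.08 to 5.69 in ES_Obox3. Crx and each of these 4 genes passed the filter through ES_Obox3 alone, so their calls describe the filter as well as the difference. The other 3 photoreceptor genes were not called, and the list reached 0.76, with 0 genes called higher. With TPM as deposited 1 was higher and 4 were lower. Crxos itself was expressed in ES_Obox3, at 43.9 and 46.7 scaled TPM, and was still higher in the Crxos libraries by 5.18 (adjusted p = 0.000795). The Crxos libraries were chosen by a label that names this plasmid, so the direction for Crxos was set by the choice.

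A gene was counted when TAATCC on either strand lay in the 250 bases upstream of any of its RefSeq starts. This held for 625 of 9587 tested genes with a window (6.52%). It held for 104 of 985 genes called lower in the Crxos libraries than in ES_Obox3 (10.6%) and for 31 of 553 called higher (5.61%). A gene with more annotated starts had more windows to match, and the shares were not adjusted for this. These shares are descriptions. Trim43a, Klf17 and Pramel7 had 0 matches, and the Crx and Guca1a windows shown at the start had 2 and 1.

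**Figure D5:**
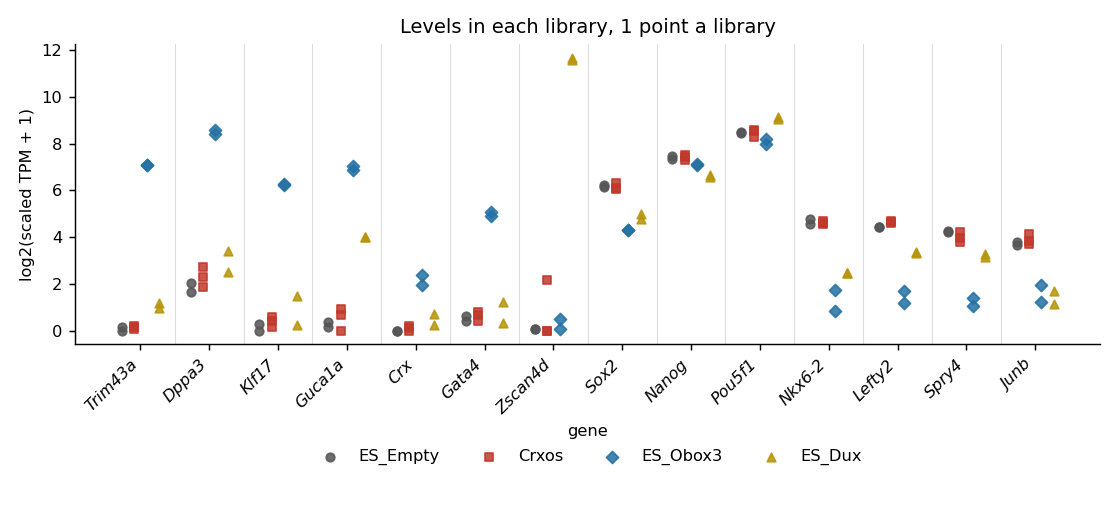
Level of 14 genes as log2(scaled TPM + 1), 1 point a library, for ES_Empty (2 libraries), Crxos (3), ES_Obox3 (2) and ES_Dux (2). The Crxos points lie near the ES_Empty points, with Zscan4d in Crxos2 (3.43 scaled TPM) apart, while ES_Obox3 is higher in genes such as Trim43a and lower in genes such as Nkx6-2.

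Other genes lower in the Crxos libraries than in ES_Obox3 came from further lists. Naalad2, a peptidase gene, had a log2 fold change of -6.16. Sycp3, a component of the meiotic chromosome axis, was at 6.84, 4.77 and 6.16 scaled TPM in the Crxos libraries, 6.44 and 4.54 in ES_Empty, and 111 and 138 in ES_Obox3 (-4.19, adjusted p = 0.000317). Gata4, a primitive endoderm factor, had -4.34 from 32.3 and 28.6 in ES_Obox3, Krt18, a keratin of the trophectoderm, -3.57, Fbxo15, a target of OCT4 and SOX2, -3.41, and Dppa2 -2.47. Gata4 passed the filter through ES_Obox3 alone, so its call describes the filter as well as the difference. The de novo DNA methyltransferase genes Dnmt3a and Dnmt3b had log2 fold changes of -2.34 and -1.45, the second call being lost with TPM as deposited (-0.76). The primitive endoderm, trophoblast and DNA methylation lists held calls in both directions, while the germ cell list, that of Sycp3, held only lower ones. Over all genes tested 6.57% were higher and 9.75% lower. Of 8 primitive endoderm genes tested 1 was higher and 3 were lower in the Crxos libraries, with a median of 0.01, and of 13 trophoblast genes 4 were higher and 3 lower, with a median of 0.52. With TPM as deposited these counts were 1 and 1, and 6 and 2. Of 12 germ cell genes 0 were higher and 3 lower, and of 15 DNA methylation genes 1 was higher and 4 were lower. With TPM as deposited the germ cell list had 3 higher and 1 lower, and the DNA methylation list 4 and 2. Without 1 TPM in any Crxos library, 2 primitive endoderm genes, 1 trophoblast gene and 1 DNA methylation gene passed the filter. For each of the named genes the interval against ES_Empty, where it was tested, included 0.

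Some signalling and pluripotency genes were higher in the Crxos libraries than in ES_Obox3. The signalling lists did not rise as a class. Of 16 FGF signalling genes tested 3 were higher and 3 lower, with a median of 0.17, and of 8 Wnt target genes 1 was higher and 0 were lower. Over all genes tested 6.57% were higher and 9.75% lower. With TPM as deposited these counts were 5 and 2, and 4 and 0. None of the genes named in this paragraph was called against ES_Empty. Nkx6-2 had a log2 fold change of 3.33 (0.792 and 2.34 scaled TPM in ES_Obox3), Lefty2 3.22, Gbx2, a homeobox gene downstream of LIF, 2.95, Spry4 2.78, Cldn4, a tight junction gene, 2.68 and Eomes, a T-box gene of trophoblast and mesoderm, 2.16. Sox2 was higher by 1.85, Zfp42 by 1.24, Klf4 by 1.16 and Esrrb by 1.01, the last lost when Crxos1 or the first ES_Obox3 library was left out (0.96 and 0.90). Of 32 core and naive pluripotency genes 11 were higher and 6 lower, against 6.57% and 9.75% of all genes tested. With TPM as deposited 16 were higher and 3 lower, against 3232 and 855 of all 17887 genes. Nanog (0.30, interval 0.02 to 0.57) and Pou5f1 (0.36, interval -0.00 to 0.73) did not pass. The immediate early gene Junb was higher by 2.33. The remaining large increases by rule were noncoding, CR974473.1 (3.83) and the small nucleolar RNA gene AF357425 (3.38).

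Against ES_Dux the 3 Crxos libraries differed in another set of values. Of 17646 genes tested 715 (4.05%) were higher and 1320 (7.48%) lower, 35.1% higher among the calls, and with TPM as deposited 9622 were higher and 805 lower (92.3% higher), the median of all genes moving from 0.08 to 1.11. The ES_Dux factors were 0.342 and 0.376. Without the first or the second ES_Dux library the count of lower genes fell to 380 or 533.

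The largest differences were again genes of the 2-cell embryo, high in ES_Dux and near 0 in the Crxos libraries. AW822073 was at 0.213, 0.251 and 0.265 in Crxos1 to Crxos3 and at 7879.6 and 8155 in ES_Dux (log2 fold change -12.66, interval -12.86 to -12.45, adjusted p = 1.96e-06). Duxf3, the mouse Dux gene and so the gene that the ES_Dux cells were given, had -12.00. Zscan4b had -11.06, Zscan4d -10.91 and Usp17le, of a family of deubiquitinases, -10.66. Of 44 such genes 35 passed the filter, 24 of them without 1 TPM in any Crxos library, and 30 were lower and 0 higher, a count that the filter sets for most of these genes. Over all genes tested 7.48% were lower and 4.05% higher. With TPM as deposited 29 of the 35 were lower and 3 higher. These genes sit in near-identical families, and the level of each member is uncertain. Chit1, a chitinase gene of the same list, was lower in the Crxos libraries than in ES_Dux (-5.46) and in ES_Obox3 (-5.41). Against ES_Empty no gene of this list was called.

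Genes higher in the Crxos libraries than in ES_Dux included Junb (2.48, at 16.6, 13.3 and 12.2 against 2.28 and 1.18), the nuclear noncoding RNA Neat1 (2.49), Nkx6-2 (2.17), Fgf4, the main FGF ligand of mESCs (1.75), and Sox2 (1.27). None of these genes was called against ES_Empty. Of 32 core and naive pluripotency genes 4 were higher and 1 was lower than in ES_Dux, against 4.05% and 7.48% of all genes tested. With TPM as deposited 26 were higher and 0 lower, against 9622 and 805 of all 17646 genes. CR974473.1 had 4.98 against 2 ES_Dux libraries listed at 0, a fitted value that depends on the pseudocount. Of 38 ribosomal protein genes 12 were lower in the Crxos libraries (median -0.94), against 7.48% of all genes tested. With TPM as deposited 0 were called and the median was 0.57, so the direction depends on the scaling. Rplp0 went from -1.17 to 0.34 and Fbxo15 from -1.33 to 0.15 in the same way.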

How the data were processed

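Per the file headers the values are TPM per gene as deposited by the authors, and each column summed to a constant. Among tools in the submitters' processing notes are HISAT2, featureCounts 1.6.5 and the build mm10, with no role given. The annotation, the strand setting and the handling of reads with several positions are not stated. The table held 55364 genes under Ensembl identifiers, of which 54312 matched the reference table of gene names, and 217 genes shared a symbol with another. Columns were matched to samples by name.

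TPM were divided by median-ratio factors over 13 libraries (17088 genes), set to a geometric mean of 1 in ES_Empty. Differences were fitted with limma (version 3.58.1, under R version 4.3.3, with statmod version 1.5.0) on log2(scaled TPM + 1), with trend and robust moderation, on the 5 libraries of each comparison, for genes at 1 TPM or more in at least 2 of them. Fold changes are on that scale, which understates those of low genes. Calls needed an adjusted p under 0.05 together with a log2 fold change of 1 or more in size. The method was tried on simulated normal values whose spread followed the mean level alone. That setting is simpler than these data and does not measure how often real changes are missed here. TPM keep no depth, so reads per TPM were estimated from the steps between low values, with 52.0 to 60.8% of values of short genes at whole reads in these 5 libraries. Counts were not recovered and no count model was used. No pair of libraries held identical values.

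Named genes were Crxos and Crx. In each contrast with ES_Obox3 and ES_Dux they also included the 5 largest called differences each way at 10 scaled TPM or more, for single constructs the 5 largest gains and losses, between constructs the 8 largest ranges, and up to 4 called and 2 well-known uncalled members of each list. Gene models with names such as Gm, Rik, Mir or Snor were counted and not named by this rule. Other list members were named after their values were seen. The members were taken by label, and this choice and the lists were made with earlier results of these data known. Of the alternatives, a test on protein-coding genes only and a pseudocount of 5 in the contrasts with ES_Obox3 and ES_Dux were added after seeing the data.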

Additional observations from a re-analysis of the deposited data

Results flagged for a closer look

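Crxos RNA was also found in mESC libraries that carried no Crxos plasmid and that enter none of the comparisons, at deposited TPM above both ES_Empty libraries (0.363 and 0.960). It was 24.6 and 18.4 TPM in the 2 ES_Obox5 libraries and 11.2 and 7.15 TPM in the 2 ES_Obox6 libraries. In the single libraries of ES_Obox7 and ES_Obox4ps27 it was 1.19 and 1.13 TPM, little above the second ES_Empty library.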

How the results depend on the processing

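No paired analysis was possible because the Crxos libraries all carry the replicate number 1. The count against ES_Empty was 1 higher and 0 lower with TPM as deposited, factors over 5 libraries, no filter, a filter of 5 TPM, a pseudocount of 5, protein-coding genes only and fold limits of 0 and 2. It was 0 higher with a pseudocount of 0.1, 2 higher and 1 lower with the spread of 13 libraries (Crxos, Mrps36-ps1 and Gm22461), and 1 higher and 1 lower without trend and robust moderation (Crxos and Gm25048). Leaving out 1 library gave 0 to 1 higher and 0 lower. The cause of these changes was not tested.

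Against ES_Obox3 the calls were 1175 higher and 1744 lower, and became 3232 and 855 with TPM as deposited, 746 and 984 with a filter of 5 TPM and 346 and 846 with a pseudocount of 5. Without 1 library they ranged from 889 to 1172 higher and from 964 to 1727 lower. Against ES_Dux 715 and 1320 became 9622 and 805 with TPM as deposited, 409 and 631 with a filter of 5 TPM, and 143 higher with a pseudocount of 5. Without 1 library they ranged from 515 to 717 higher and from 380 to 1251 lower. With TPM as deposited Rplp0 (0.34) and Fbxo15 (0.15) changed sign against ES_Dux. The stricter filter tests fewer genes, and the cause of the other changes was not tested.

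For single constructs, a limit of 1 in place of 2 gave 371 genes above and 242 below for Crxos1, 379 and 287 for Crxos2 and 699 and 183 for Crxos3, a limit of 3 gave 17 and 2, 16 and 8, and 25 and 6, and a pseudocount of 5 gave 4 and 0, 3 and 1, and 8 and 0. Between constructs 1 and 2, 1 and 3, and 2 and 3, a limit of 1 gave 1465, 1465 and 1592 genes, a limit of 3 gave 77, 87 and 119, and a pseudocount of 5 gave 11, 12 and 22. The ES_Empty pair differed in 1512 genes at a limit of 1 and in 82 at a limit of 3.

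By the rule used, a change of less than 1 log2 unit could not be called. Against ES_Empty 743 genes had a log2 fold change of 1 or more in size, 536 of them under 5 scaled TPM, and only Crxos was called, so larger changes also went uncalled, such as 4.78 for Gm24136. A change specific to 1 construct has no replicate.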

Other observations

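The small nucleolar RNA genes, which guide the modification of ribosomal RNA, mostly had log2 fold changes above 0 in the Crxos libraries, a pattern chosen after the values were seen and given here with no test. Of 122 such genes tested 111 had a log2 fold change above 0, with a median of 0.63, and for 66 all 3 Crxos libraries lay above both ES_Empty libraries, against 2 for which all lay below. Over all genes tested these were 10.6 and 11.3%, and 47.2% of the genes outside the small nucleolar and microRNA classes had a log2 fold change above 0. The median level of the class, as log2(scaled TPM + 1), was 6.30, 6.38 and 7.12 in Crxos1 to Crxos3 and 5.90 and 6.18 in ES_Empty, so Crxos3 was the highest and Crxos1 and Crxos2 were close to the second ES_Empty library. Snord4a, a box C/D gene at chr11:78181687-78181756, was at 19.6, 20.7 and 20.7 scaled TPM against 10.8 and 10.2, with a log2 fold change of 0.90 and an adjusted p of 0.203 in limma. Its deposited TPM reached 25.9 in ES_Obox7 and 24.4 in 1 ES_Obox6 library, the other being listed at 0. The 556 microRNA genes tested had a median of 0.11 and all other genes -0.01. Short genes rest on few reads, and how they move with library preparation was not tested.

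Gm24136, annotated as a small nuclear RNA gene at chr3:96422733-96422897, was at 47.9, 52.0 and 39.8 scaled TPM in the Crxos libraries and at 0 and 1.97 in ES_Empty, with an adjusted p of 0.214. Its deposited TPM were also high in single libraries of ES_Obox1 (23.6), ES_Obox5 (21.5) and ES_Obox6 (18.4).

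Timm10, which encodes a chaperone of mitochondrial import, was at 13.3, 12.99 and 13.7 scaled TPM in the Crxos libraries and 22.5 and 24.4 in ES_Empty. Its log2 fold change of -0.77 had an adjusted p of 0.214 over all genes and of 0.0465 in limma over 10852 protein-coding genes, under the fold needed for a call. In the 14 libraries with neither a Crxos nor an empty plasmid its deposited TPM ran from 2.25 to 26.0. Dnajc24, needed for the diphthamide modification of a translation factor, was at 8.52, 8.81 and 9.66 against 4.46 and 4.43, with a log2 fold change of 0.88 and an adjusted p of 0.0606 in the same fit. Its deposited TPM were also above those of ES_Empty (4.71 and 4.20) in other libraries, such as 11.4 in ES_Obox4ps27, 7.94 in ES_Obox8 and 7.85 in 1 ES_Obox6 library, against 8.63 to 10.1 in the Crxos libraries.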
